A study of Mus musculus with 143 samples.

Results

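The genes of the vacuolar proton pump and of the lysosome membrane were measured in single microglia, the macrophages that live in brain tissue. The members are every row of the deposited count table named Atp6v0, Atp6v1 or Atp6ap, which gives 26 rows, and 16 named genes of the lysosome membrane and its sorting receptors. They make 42 of the 23337 gene rows of the table. The cells came from the cerebellum of wild type male C57BL6N mice at postnatal day 7, were sorted for low CD45, CD11b, Gpnmb and Clec7a on their surface, and were sequenced by Smart-seq2, which reads whole transcripts and carries no molecular identifiers. The animals were pooled before sorting, so the 143 cells form 1 sample of 1 group, no cell can be assigned to an animal, and no test between groups of cells was made. Plate 1 holds 95 cells and plate 2 holds 48.

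The vacuolar ATPase, or V-ATPase, pumps protons into lysosomes, endosomes and secretory granules. Its V1 sector in the cytosol splits ATP and turns a rotor, and its V0 sector in the membrane carries the protons. Most subunits are made in every tissue. At some positions a paralogous gene supplies a second isoform in kidney, testis, brain or bone. Around the pump, heavily glycosylated proteins line the lysosome membrane, channels and transporters balance the charge and export the products of digestion, and sorting receptors bring the enzymes in. Microglia of the developing white matter engulf myelin debris and dying cells, which are broken down in these lysosomes.

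The sorted cells carried the RNA of microglia. All 10 microglia markers had reads, 6 of them in 90% of cells or more. The rest were P2ry12 in 88.1%, Siglech in 69.2%, Sall1 in 58.7% and Tmem119 in 25.9% of cells. Of 7 osteoclast markers 5, Ctsk, Mmp9, Oscar, Dcstamp and Ocstamp, had 0 reads in every cell, and Acp5 was read in 6.99% of cells. Of the gate genes, RNA of Gpnmb was read in 98.6%, of Clec7a in 83.2%, of Ptprc, which encodes CD45, in 76.2% and of Itgam, which encodes CD11b, in 67.8% of cells. Counts on genes ran from 259613 to 1178529 per cell with a median of 727276, and the ribosomal RNA precursor Rn45s took 9.28% of them.

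The members together took 1.84% of all gene counts. The share in a single cell was 1.15% at its lowest, 1.82% at the median and 2.87% at its highest, with a coefficient of variation (CV, the SD over the mean) of 0.161 over 143 cells. The 26 V-ATPase rows held 0.646% of gene counts and ranged from 0.212% to 1.47% in single cells (CV 0.308), and the 16 membrane genes held 1.20%, from 0.700% to 1.78% (CV 0.170). Cd68, Laptm5 and Lamp1 alone supplied 50.6% of all member counts. Of the 42 members, 36 had a read in at least 1 cell, and 13 reached 90% of cells or more. Of all gene rows 2.34% did so, or 4.26% of those with a read. The 13 are 8 of the V-ATPase rows and 5 of the membrane genes.

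**Figure D1:**
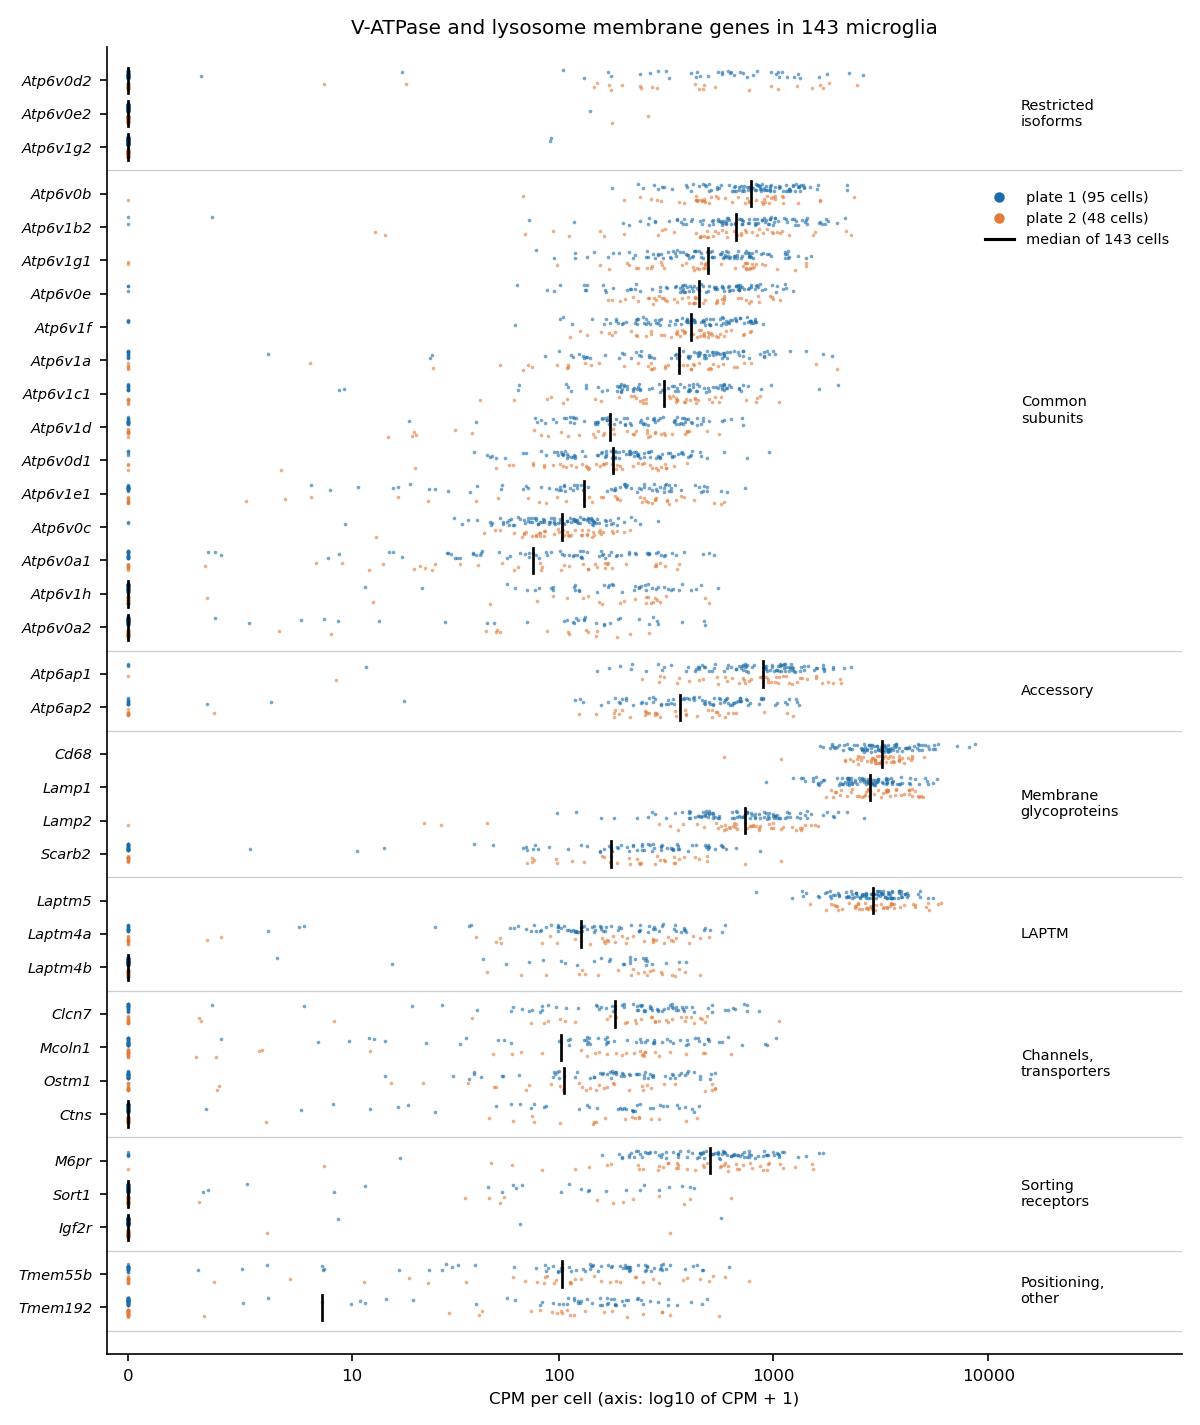
Level of each member with a read, except the pseudogene, in each of 143 cells. The horizontal axis is counts per 1000000 gene counts (CPM) on the log10 scale of CPM + 1, points are cells coloured by plate, and the black bar is the median of all cells. Cd68, Laptm5 and Lamp1 stand at the right with a read in every cell, while Atp6v0d2 has 77 cells at 0 and 62 cells between 103.7 and 2619 CPM.

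Levels are given as pooled CPM, the counts of a gene summed over cells per 1000000 summed gene counts, and as pooled CPM per kilobase (kb) of annotated exon where genes are set against each other. Of the V1 sector, which holds the ATP-splitting head, the catalytic subunit A gene Atp6v1a was read in 88.1% of cells at 408 CPM. The gene of its partner in the head, Atp6v1b2 for subunit B, was read in 98.6% at 780 CPM, with cells at 0, 670 and 2302 CPM for the lowest, the median and the highest. Per kb of exon Atp6v1a stood at 67.5 CPM and Atp6v1b2 at 147 CPM. In the assembled head both subunits are present in equal number.

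The rotor subunits D and F are encoded by Atp6v1d and Atp6v1f. Atp6v1f was read in 97.2% of cells at 418 pooled CPM, with 0, 412 and 897 CPM for the lowest, the median and the highest cell, and Atp6v1d in 82.5% at 206 pooled CPM. The peripheral stalks are built from subunits E and G. Atp6v1g1 had 0, 494 and 1502 CPM in the lowest, the median and the highest cell and the highest level of the V-ATPase subunits per kb of exon, 495 pooled CPM, although Atp6v0b at 827 and Atp6v1f at 518 pooled CPM per kb exceed it with the longest transcript as length. Atp6v1e1, read in 81.1% of cells, had 42.4 pooled CPM per kb of exon. Annotated transcripts of Atp6v1g1 share 19.2% of their 50-base words with the genes Gm13453 and Gm12344, and those of Atp6v1f share 11.2% with another gene, so the counts of both depend on how reads with several matches were treated. Atp6v1c1, the subunit that clamps the sectors together, was read in 88.1% of cells at 354 pooled CPM. Atp6v1h, a regulatory subunit required for activity of the assembled pump, was read in only 46.9% of cells (exact Clopper-Pearson 95% interval 38.5 to 55.4%), at 100.5 pooled CPM and with 553 CPM in the highest cell.

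The V0 sector conducts the protons through a ring of subunits c and c''. The c'' gene Atp6v0b had 0, 787 and 2359 CPM in the lowest, the median and the highest cell, a pooled level of 827 CPM and 403 pooled CPM per kb. The gene of subunit c, Atp6v0c, was read in 98.6% of cells but at only 108.5 pooled CPM, or 32 CPM per kb. A ring holds several copies of subunit c and a single c''. The level of Atp6v0c is uncertain, since 30.5% of the 50-base words of its principal transcript recur in annotated copies, mainly Atp6v0c-ps2 and Atp6v0c-ps1. The row of the pseudogene Atp6v0c-ps2 held 2 counts in 1 cell. Atp6v0e, a small subunit of the sector, was read in 97.9% of cells at 502 pooled CPM, with 0, 450 and 1233 CPM for the lowest, the median and the highest.

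The accessory subunits differed in how steadily they were read. Atp6ap1, which encodes the Ac45 protein that helps assemble and sort the pump, was read in 97.2% of cells at 897 pooled CPM, with cells at 0, 893 and 2302 CPM for the lowest, the median and the highest. Atp6ap2, the (pro)renin receptor gene, was read in 86% at 422 pooled CPM. The row Atp6ap1l had no read.

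Tissue-restricted isoforms among the members, other than Atp6v0d2, had no reads or reads in very few cells. Of 8 restricted isoforms, 5 had 0 reads in 143 cells, against 0 of 14 common subunits. Of all gene rows, 45.1% had no read. The 5 are Atp6v0a4 and Atp6v1b1, isoforms of the acid-secreting cells of kidney and inner ear, Atp6v1g3 and Atp6v1c2, found mainly in kidney, and Atp6v1e2, found in testis. A count of 0 of 143 cells allows a share of up to 2.1% of cells with a read, and the exact interval ends at 2.55%. The median share of cells with a read was 0% for the restricted isoforms and 91.6% for the common subunits.

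The isoforms that are enriched in brain had reads in few cells. Atp6v0e2 was read in 3 cells, with 4.16 pooled CPM and 260 CPM in the highest, and Atp6v1g2, the neuronal G isoform, was read in 2 cells, with 1.42 pooled CPM and 91.6 CPM in the highest. Of 7 neuron markers 6 had a read, in 16 cells in all and none in more than 5.59% of cells. Of the cells with Atp6v0e2, 1 was among these 16, and likewise 1 of the cells with Atp6v1g2. Markers of other brain cells were read more widely than those of neurons. Of 6 oligodendrocyte markers 3 had a read and of 5 astrocyte markers 4, in up to 13.3% of cells in each list. Whether RNA of other cells entered these wells was not tested.

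At each subunit position with more than one gene, the share of each isoform was computed from counts per kb of exon. The restricted isoforms took 0% of subunits B, C and E, 1.28% of subunit e through Atp6v0e2 and 0.114% of subunit G through Atp6v1g2. Common isoforms took the rest. Subunit a, which anchors the pump to a given compartment, is supplied by Atp6v0a1, Atp6v0a2, Atp6v0a4 and Tcirg1, a gene of the pump whose name does not match the family pattern. Atp6v0a4 took 0%, Atp6v0a1 19.5%, Atp6v0a2 8.34% and Tcirg1, which encodes the a3 isoform of lysosomes and of the osteoclast border, 72.1%. Tcirg1 was classed as common. Counted as restricted, it would give restricted isoforms most of subunit a. Atp6v0a1 was read in 79.7% of cells at 108.03 pooled CPM, and Atp6v0a2, known from endosomes and Golgi, in 34.3% at 47.3 pooled CPM.

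**Figure D2:**
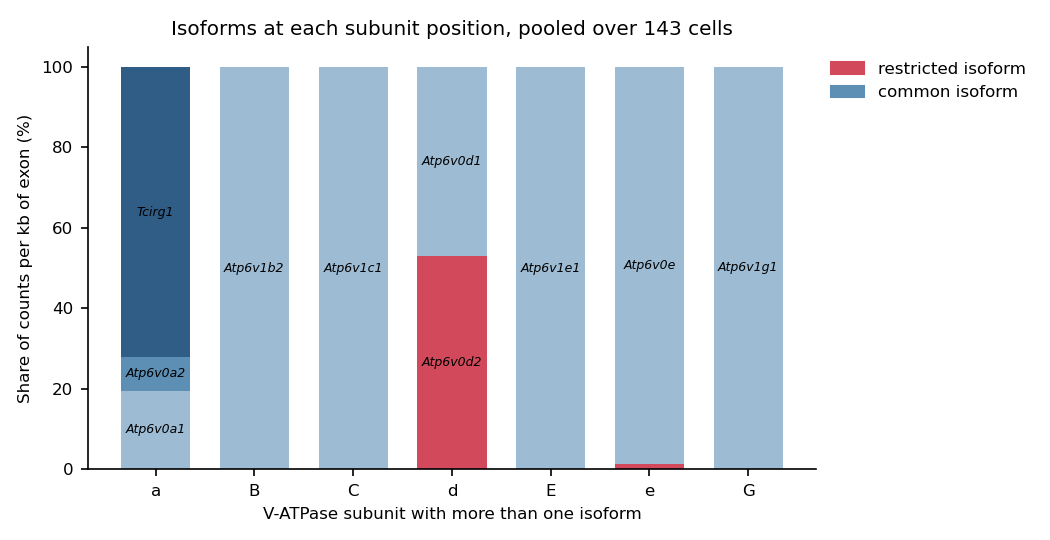
Share of each isoform at the 7 subunit positions that have more than one gene, as percent of counts per kilobase of exon summed over 143 cells. Red marks restricted isoforms and blue common ones, with Tcirg1 at subunit a drawn as common. Red reaches 53% at subunit d, 1.28% at subunit e, and is too small to see elsewhere.

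Subunit d, the socket between the rotor and the proton ring, was the exception with Tcirg1 classed as common. The restricted Atp6v0d2, an isoform of osteoclasts, kidney and some macrophages, took 53% of the position and the common Atp6v0d1 47%. The share of Atp6v0d2 was 49.8% on plate 1 and 60.4% on plate 2. It was 63.1% without division by length. The genes lie apart, Atp6v0d2 at chr4:19876841-19922605 on the minus strand and Atp6v0d1 at chr8:105524465-105566047 on the minus strand (mm10). Neither shares a 50-base word with any other annotated gene, so their reads could be told apart.

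The 2 genes reached these sums, 340 pooled CPM for Atp6v0d2 and 199 for Atp6v0d1, in different ways. Atp6v0d1 was read in 95.1% of cells, with 0, 179 and 957 CPM in the lowest, the median and the highest. Atp6v0d2 was read in 66 cells, or 46.2% (37.8 to 54.7%), with 0, 0 and 2619 CPM in the lowest, the median and the highest. Its cells fell into separate ranges, since 77 cells had no read, 4 cells held between 1.19 and 18.6 CPM, and 62 cells held between 103.7 and 2619 CPM with a median of 595 CPM. The 10 leading cells held 38.8% of its summed CPM. Both genes were read in 63 cells, only Atp6v0d2 in 3, only Atp6v0d1 in 73 and neither in 4.

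Averaged over cells instead of reads, Atp6v0d2 took 29% of the position per kb, and it exceeded Atp6v0d1 in 45 cells. The level of Atp6v0d1 was not lower where Atp6v0d2 was read. Its median was 189 CPM (quartiles 134.3 and 289) in cells with Atp6v0d2 and 164 CPM (93.6 and 250) in cells without it, and the quartiles overlap. Within plates the medians of Atp6v0d1 were 206 and 181 CPM on plate 1 and 176 and 93.6 CPM on plate 2, the cells with Atp6v0d2 named first each time.

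**Figure D3:**
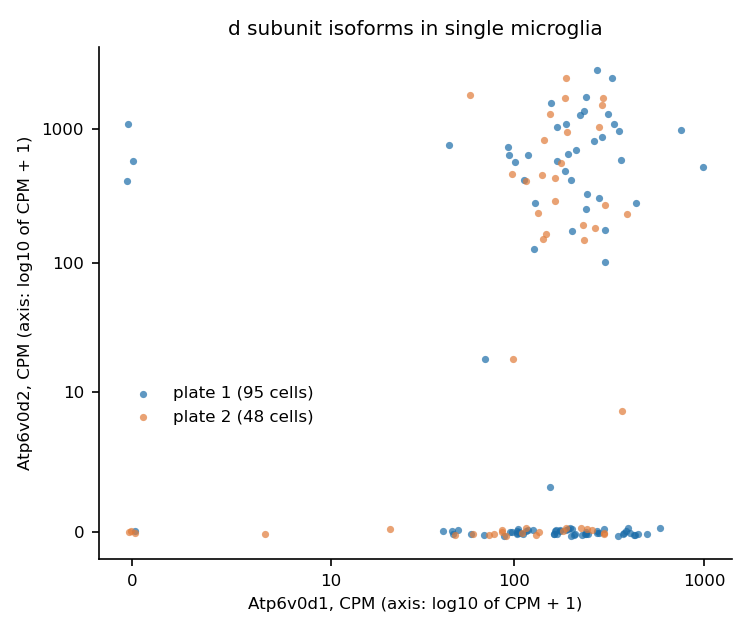
CPM of Atp6v0d2 (vertical) against CPM of Atp6v0d1 (horizontal) in 143 cells, both as log10 of CPM + 1, with a small jitter so that cells at 0 can be seen. The cloud at upper right holds most of the 63 cells with both genes, the row along the bottom the 73 cells with Atp6v0d1 only, and 3 cells at upper left have Atp6v0d2 only.

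Cells with and without Atp6v0d2 were similar in depth. The median number of genes detected was 3256 in cells with Atp6v0d2 and 3232 in cells without it, and gene counts per count of the spike-in RNA added to each well were 24.9 in cells with it and 24.1 in cells without it. Summed osteoclast markers had a median of 0 CPM in both, with highest cells at 224 CPM among cells with Atp6v0d2 and 260 CPM among cells without it. Summed markers of border macrophages had a median of 99.2 CPM in cells with Atp6v0d2 and 128.8 CPM in cells without it, with highest cells at 858 CPM among cells with it and 1760 CPM among cells without it. Of the 5 genes of that list, Mrc1 was read in 55.9% of all cells, Ms4a7 in 21% and Cbr2 in 10.5%, and Cd163 and Lyve1 had 0 reads in every cell. The summed genes of the G2 and M phases had a median of 52.1 CPM in cells with Atp6v0d2 and 280 CPM in cells without it. The part of these measures in the level of Atp6v0d2 was not tested. The summed gate genes had a median of 4651 CPM in cells with Atp6v0d2 and 3604 CPM in cells without it.

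Across cells, the genes whose levels ran most like Atp6v0d2 were Fabp5, Itgax, Aplp2, Vat1 and Cd63. They had the highest mean of the Spearman rho of both plates among the 2197 genes that 50% of cells or more contained. Fabp5, a fatty acid binding protein gene, had a rho of 0.51 on plate 1 and 0.56 on plate 2, and Itgax, which encodes CD11c, 0.51 and 0.50. Aplp2 had 0.45 and 0.41, Vat1 0.30 and 0.40, and Cd63, a tetraspanin of lysosomes, 0.38 and 0.31. The cells of a plate share their library preparation, and these values are descriptions over 95 and 48 cells.

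The 4 membrane glycoproteins held 39.7% of member counts, most of it from Cd68 and Lamp1. Cd68, the macrosialin of macrophage lysosomes at chr11:69664213-69666153, had 588, 3194 and 8693 CPM in the lowest, the median and the highest cell. Lamp1, at chr8:13159161-13175338, had 923, 2802 and 5786 CPM. Both were read in every cell, and their interquartile ranges overlap, 2669 to 3783 CPM for Cd68 and 2239 to 3444 CPM for Lamp1. Their pooled levels were 3385 CPM for Cd68 and 2928 CPM for Lamp1, or 2693 and 1095 pooled CPM per kb of exon. Lamp2, whose A form takes in proteins during chaperone-mediated autophagy, was read in 99.3% of cells at 799 pooled CPM, with 0, 737 and 2633 CPM for the lowest, the median and the highest. Scarb2, which encodes LIMP-2, the carrier of glucocerebrosidase, was read in 71.3% of cells at 199 pooled CPM.

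The LAPTM family was led by the member of blood cells. Laptm5, a lysosomal protein of haematopoietic cells at chr4:130913125-130936141, had 825, 2902 and 6000 CPM in the lowest, the median and the highest cell, a pooled level of 3012 CPM and 795 pooled CPM per kb. Laptm4a was read in 80.4% of cells at 88.4 pooled CPM per kb, and Laptm4b in 35% at 36.9 pooled CPM per kb. In the cells with a read, the median of Laptm4b was 215 CPM.

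Channels and transporters were read in a part of the cells each, and no member of the group reached 90%. Clcn7, the chloride-proton exchanger that balances the charge of the pump, was read in 76.2% of cells at 209 pooled CPM, and its partner Ostm1, needed for its stability, in 69.2% at 148 pooled CPM. Per kb they stood at 39.5 and 20.5 pooled CPM. Mcoln1, the cation channel TRPML1, was read in 65.7% of cells at 162 pooled CPM and had 0, 101.6 and 1026 CPM in the lowest, the median and the highest cell. Ctns, the cystine exporter, was read in 41.3% of cells at 73.8 pooled CPM, with a median of 192 CPM among the cells with a read.

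Of the sorting receptors, M6pr was the abundant one. M6pr, the cation-dependent mannose 6-phosphate receptor, was read in 95.8% of cells at 561 pooled CPM, with 0, 505 and 1703 CPM for the lowest, the median and the highest. Igf2r, the cation-independent receptor for the same sugar tag, was read in 5 cells, or 3.50% (1.14 to 7.97%), at 5.94 pooled CPM and with 571 CPM in the highest. Per kb of exon M6pr stood at 134.5 pooled CPM and Igf2r at 0.638 pooled CPM. Sort1, which encodes sortilin, was read in 25.9% of cells at 42.9 pooled CPM, with a median of 136.9 CPM among the cells with a read. Of the remaining membrane proteins, Tmem55b, which links lysosomes to motor adaptors, was read in 76.2% of cells at 141.4 pooled CPM and Tmem192 in 52.4% at 84.8 pooled CPM. The exons of Tmem55b overlap those of Apex1 over 19.5% of their length, so some of its reads may count to either gene.

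Many lysosomal genes carry an E-box-like element in their promoters that transcription factors of the TFEB family bind. The 8-letter form TCACGTGA, which reads the same on both strands, was searched in RefSeq promoters (GRCm38.p6, 250 bases before to 50 after each start). It was found for 7 of the 31 members matched in that table, or 22.6%, and for 1.12% of all 27025 genes in it. The shorter CACGTG, which every TCACGTGA contains, was found for 9 members, or 29%, and for 8.09% of all genes. A match is a description of these letters only. The windows with the longer form are printed 5′ to 3′ on the strand of the gene, with the element in capitals, to show how near the start it lies.
Atp6v0d1: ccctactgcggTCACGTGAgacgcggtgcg
Atp6v0e: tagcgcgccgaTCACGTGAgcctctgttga
Atp6v1a: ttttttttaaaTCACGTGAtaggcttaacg
Clcn7: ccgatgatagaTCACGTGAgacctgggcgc
Mcoln1: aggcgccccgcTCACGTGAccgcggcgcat
Tmem55b: gggccagcctgTCACGTGAgcggggcggca
Igf2r, upstream: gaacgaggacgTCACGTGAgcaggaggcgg
Igf2r, downstream: gccgactcaggTCACGTGAcgctccgggga

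These windows lie at chr8:105566050-105566079 (minus) for Atp6v0d1, chr17:26676387-26676416 (plus) for Atp6v0e, chr16:44139373-44139402 (minus) for Atp6v1a and chr17:25133386-25133415 (plus) for Clcn7. Those of Mcoln1 are at chr8:3500462-3500491 (plus), of Tmem55b, named Pip4p1 in RefSeq, at chr14:50930886-50930915 (minus), and of Igf2r at chr17:12769737-12769766 and chr17:12769696-12769725 (minus). The element began 4 bases before the start in Atp6v0d1, 46 before it in Mcoln1 and 55 before it in Tmem55b, and it lay farthest from the start in Atp6v1a, upstream of these. Among the 7 genes, the share of cells with a read ran from 3.50% for Igf2r to 97.9% for Atp6v0e.

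Variation between cells was then compared with genes of like abundance. For 7789 genes with a read in 10% of cells or more, the excess is the log2 of the squared CV of CPM over a running median of neighbours in mean CPM, so 0 is typical for the abundance. The 32 members that could be ranked had a median excess of -0.06, with 16 above 0, against a median of 0 and 49.7% above 0 for all genes. The median of the members was -0.10 on plate 1 and 0.11 on plate 2.

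Atp6v0d2 and Atp6v0c stood at the ends. Atp6v0d2 reached 2.13 over all cells, 2.12 on plate 1 and 2.25 on plate 2, and ranked 11th from the top of the 7789 genes. Measured as the variance of log2(CPM + 1) over its running median, its excess was 1.41. Atp6v0c had -2.98, -2.84 on plate 1 and -3.36 on plate 2, and ranked 27th from the bottom. Its excess was -3.54 by the variance of log2(CPM + 1) and -2.27 scaled to spike-ins. Its cells had 0, 103.3 and 290.1 CPM for the lowest, the median and the highest, with quartiles at 73.9 and 139.5 CPM. The words that Atp6v0c shares with annotated copies make its spread uncertain as well as its level. Atp6v0d1, the common partner of Atp6v0d2, had -0.88. Laptm5, Lamp1 and Cd68 had -1.19, -1.14 and -1.02, and Atp6v1f had -0.95. Atp6v1a had 0.65 and Sort1 and Mcoln1 had 0.54 and 0.47.

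**Figure D4:**
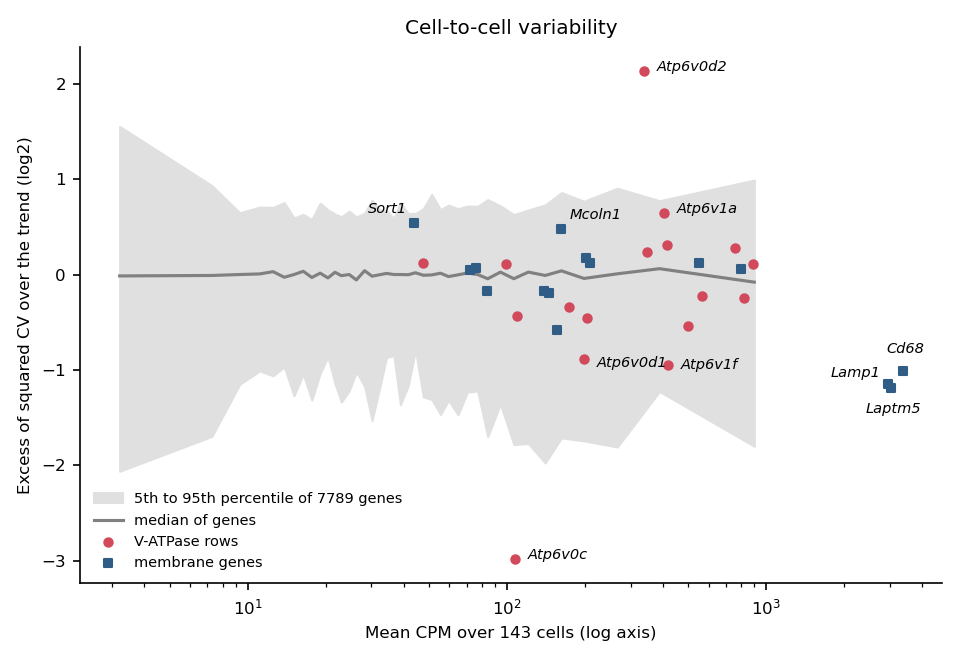
Excess of the squared coefficient of variation over the trend (log2, vertical) against mean CPM over 143 cells (log axis). Grey shows the range from the 5th to the 95th percentile of 7789 genes in bins of mean CPM with their median, red circles are V-ATPase rows and blue squares membrane genes; Atp6v0d2 lies above the grey at 2.13 and Atp6v0c below it at -2.98.

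The members did not run together closely across cells. Over the 78 pairs of the 13 most widely read members, the median Spearman rho, averaged over the plates, was 0.06, against 0.02 for pairs of 545 genes read as widely. It was 0.13 over the 28 pairs of V-ATPase genes, -0.01 over the 40 pairs of a V-ATPase gene with a membrane gene, and -0.01 over the 10 pairs of membrane genes. The highest pairs were Atp6v0e with M6pr at 0.34, Atp6v0b with Atp6v1b2 at 0.27 and Lamp1 with Laptm5 at 0.27, and the lowest was Atp6v0d1 with Lamp2 at -0.26. Scaled to spike-in counts, which keeps the amount of RNA per cell, the median was 0.30 for the members and 0.23 for the wider set. Lamp1 ran lower in cells with more genes detected, with a rho of -0.51 on plate 1 and -0.52 on plate 2, and Laptm5 had -0.37 and -0.33. The cells of a plate share their preparation and differ in depth, and no value here was tested.

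Between plates the members differed little. The log2 ratio of plate 1 over plate 2, on pooled CPM + 1, had a median of 0.08 over the 32 members whose pooled CPM was at least 10, the same as the 0.08 over all 7616 such genes. No member was past 2-fold in either direction, where 7.46% of all genes were higher and 3.11% lower on plate 1. The extremes were Laptm4b with 55.2 CPM on plate 1 and 105.9 CPM on plate 2 (log2 -0.93), and Atp6v0a2 with 52.3 CPM on plate 1 and 36.6 CPM on plate 2 (log2 0.50).

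Dividing cells were set against the others, since the gate holds cycling microglia. A cell counted as mitotic when at least 6 of 22 genes of the G2 and M phases had a CPM of 10 or more, which gave 32 mitotic cells and left the rest as other cells. Of these, 25 mitotic cells are on plate 1 and 7 on plate 2, and 5 cells lie just above and 5 just below the limit, with 6 or 7 and with 4 or 5 genes. The members took 1.67% of gene counts in mitotic cells and 1.90% in other cells. The median log2 ratio of mitotic over other cells was -0.16 over 32 members and 0.07 over all 7616 genes. It was -0.18 and 0.05 within plate 1, and -0.18 and 0 within plate 2.

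Relative to spike-ins the sign of that median turned. Gene counts per spike-in count had a median of 28.2 in mitotic cells and 23.7 in other cells, and 3690 genes were detected at the median in mitotic cells against 3105 in other cells. On that scale the median log2 ratio was 0.21 for the members and 0.43 for all genes. The distance between members and all genes was -0.23 by gene counts and -0.22 by spike-ins.

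No member was past 2-fold higher in mitotic cells, and 2 were past 2-fold lower, where 10.7% of all genes were higher and 8.46% lower. Atp6v0d2 had 171 pooled CPM in mitotic cells and 390 in other cells (log2 -1.19, -0.91 within plate 1 and -2.70 within plate 2), and scaled to spike-ins the log2 ratio was -0.82. It was read in 9 of 32 mitotic cells, or 28.1% (13.7 to 46.7%), and in 57 of the other cells, or 51.4% (41.7 to 61%). These intervals overlap, which does not show that the shares are alike, and their difference was not tested. Atp6v0a1 had 60.4 pooled CPM in mitotic cells and 122.3 in other cells (log2 -1.01, -1.26 within plate 1 and -0.32 within plate 2). With at least 10 genes required for a mitotic cell, the log2 ratio of Atp6v0a1 was -0.78, and scaled to spike-ins it was -0.64.

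The ratios of the abundant membrane genes were smaller and took the sign of the scaling. Lamp1 had 2459 pooled CPM in mitotic cells and 3068 in other cells (log2 -0.32, and 0.049 scaled to spike-ins). Laptm5 and Cd68 had log2 ratios of -0.23 and -0.19, and 0.14 and 0.18 scaled to spike-ins. M6pr had 655 pooled CPM in mitotic cells and 533 in other cells (log2 0.30). Atp6v0a2 had the highest ratio, with 62.5 pooled CPM in mitotic cells and 42.8 in other cells (log2 0.54). The ratio of Clcn7 was 0.11 within plate 1 and -3.78 within plate 2, where only 7 cells were mitotic.

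**Figure D5:**
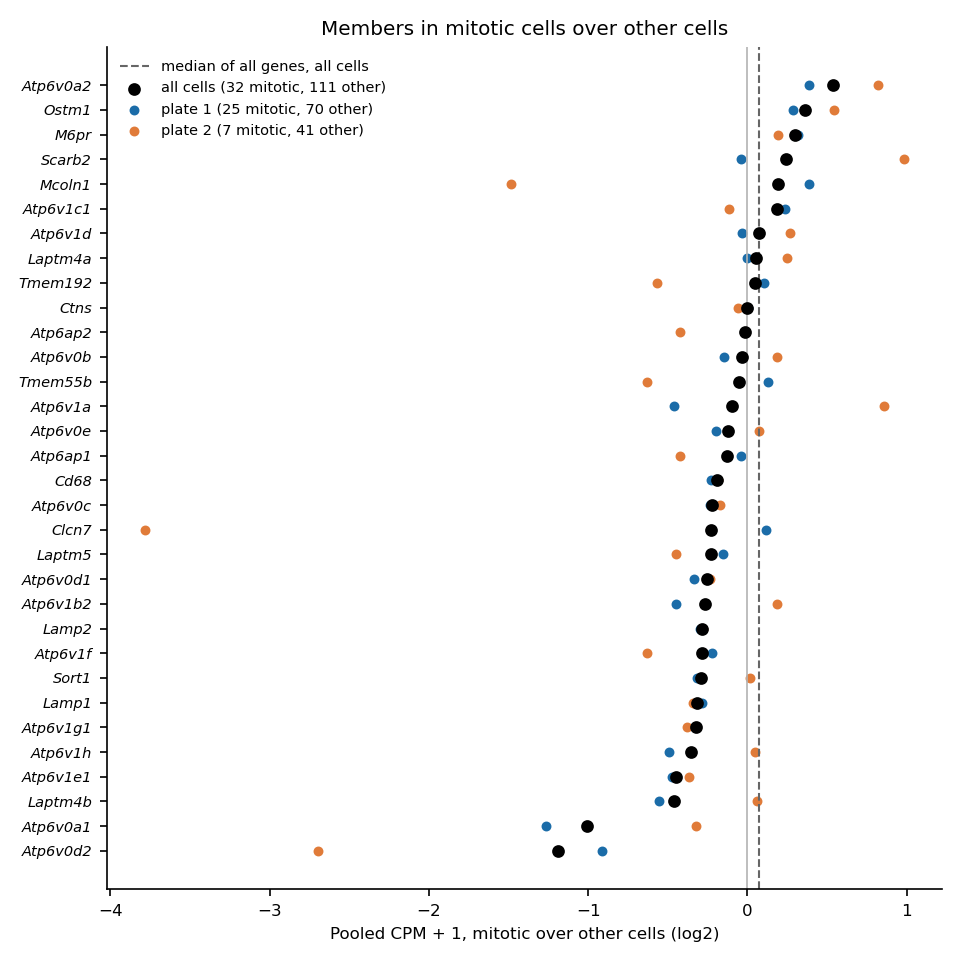
Log2 ratio of pooled CPM + 1 in mitotic over other cells for the 32 members with at least 10 pooled CPM, scaled to gene counts. Black points use all cells, blue plate 1 and orange plate 2, and the dashed line is the median of all genes at 0.07; Atp6v0d2 at -1.19 and Atp6v0a1 at -1.01 are the lowest black points, and plate 2 values rest on 7 mitotic cells.

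By the median of each list, other genes of the pathway were read less widely than the common subunits, though single genes were not all so. The medians of the lists that follow were 49%, 43.4% and 36.4% of cells, in order, against 91.6% for the common subunits. Of 11 genes for the assembly of the pump or its other parts, all had a read, 5 of them in 50% of cells or more. The highest were Tcirg1 at 280 pooled CPM, Tm9sf4 at 153, and Rnasek, a small subunit of the V0 sector, at 135.2. The Ragulator and Rag complexes tether the growth kinase mTORC1 to the lysosome. A list of their genes also held Flcn and Slc38a9, which are not parts of the complexes. Of the 8 measured genes of this list 7 had a read, led by Lamtor2 at 189 pooled CPM in 93.7% of cells, Rragc at 170 and Flcn at 155. Rragb had no read. Of 20 other measured genes of the lysosome membrane all had a read, led by Mfsd1 at 552 pooled CPM, the ATP-gated channel gene P2rx4 at 289 and the metal transporter gene Slc11a1 at 250.

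None of these genes was past 2-fold higher in mitotic cells, where 10.7% of all genes were higher and 8.46% lower. Counting genes with at least 10 pooled CPM, Dmxl2 of 10 assembly genes and Flcn of 7 genes of the Ragulator and Rag list were past 2-fold lower. So were Mcoln3 and Tmem106b of 17 other membrane genes, and the share was near that of all genes. Flcn, the folliculin gene, had 73.6 pooled CPM in mitotic cells and 179 in other cells (log2 -1.27). The log2 ratios of Dmxl2, Mcoln3 and Tmem106b were -1.94, -1.34 and -1.19.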

How the data were processed

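The authors deposited whole-number read counts per gene for each of 143 cells, not normalized. Trim Galore 0.4.3, STAR 2.5.3a, Picard, HTSeq and the build mm10 are named per the submitters' processing notes, without order or settings. The gene annotation, the treatment of reads with several matches and the use of strand are not given in the sources used here. The sum of each column equalled the total in the labels in 143 cells, and all cells had passed the authors' quality criteria. The age label and the title give day 7, which was used, although the name of a library pool includes "adult".

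CPM were computed from the counts, with 92 spike-in rows left out and Rn45s kept. Exon lengths, coordinates and shared 50-base words come from GENCODE annotation of the same build. For genes across positions, length is the union of exons. Each share of cells counts at least 1 read, with an exact Clopper-Pearson 95% interval. Intervals and limits cover counting error only, since reads without molecular identifiers are not independent molecules. Cells are not replicates, so no p-value is given. The members, the lists and the classes of restricted and common isoforms were chosen with earlier results of these data known. Named were all members, the 3 highest genes of each pathway list and those with no read, and the 5 genes most like Atp6v0d2. Genes named for a ratio past 2-fold were chosen after their values were seen. The steps for the excess and for the ratios were tested on simulated data, and the other steps were not. The simulation raised genes by well over 2-fold in a random minority of cells, so it does not cover the smaller ratios given here. Python 3.11.15, numpy 2.4.6, pandas 2.3.3, scipy 1.17.1 and matplotlib 3.10.9 were used. The alternatives tried were other denominators, thresholds, pseudocounts, lengths, thinning of each cell to 259613 counts, and each plate alone.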

Additional observations from a re-analysis of the deposited data

How the results depend on the processing

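The members' share of gene counts was 2.03% without Rn45s. The count of 13 members read in at least 90% of cells was 13 with at least 5 counts, with thinned counts and on each plate. On plate 1 restricted isoforms reached 50% at 0 of 7 subunit positions, against 1 over all cells, with Tcirg1 classed as common. The share of Atp6v0d2 at subunit d was 63.1% without division by length and 29% as the mean over cells, and 52.3% with the longest transcript as length, an alternative chosen after seeing the data. The median excess of the members was 0.11 on plate 2 alone. The median log2 ratio of plate 1 over plate 2 was 0.036 without Rn45s. The median of mitotic over other cells was -0.18 on plate 1, -0.18 on plate 2 and 0.21 scaled to spike-ins, a change of sign that Lamp1 at 0.049, Laptm5 at 0.14 and Cd68 at 0.18 also showed. The median rho of the members was 0.30 scaled to spike-ins. Of the values of single genes under alternatives, 31 moved beyond the error of the reported value and these 3 changed sign. The others stayed within that error. Most of the 31 are pooled CPM without Rn45s, a change of denominator that multiplies every gene by the same factor. Atp6ap1 went from 897 to 989 pooled CPM and counted as moved, while Atp6ap2 went from 422 to 466 and did not. Such a label reflects the width of the error and not a change particular to the gene. For pooled CPM, the error was wide enough to hold every value of a plate alone. Laptm4b, for example, had 71.4 pooled CPM over all cells and 105.9 on plate 2. Staying within the error therefore does not show that a level was stable.

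No paired analysis was possible because the series holds 1 group, and there was no replicate to leave out. Depth limits genes without a read to less than 0.0291 pooled CPM, the level of 3 counts. Spread between animals cannot be seen, and low levels in single cells cannot be told apart from reads lost during preparation.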
